A study of Xenopus tropicalis with 4 samples.

Results

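Transcription factors help to pattern the mesoderm and body axis of the frog gastrula. The genes of 8 of them are described here: tbxt (Brachyury), not, cdx1, cdx2, cdx4, evx1, hoxd1 and msgn1. They were chosen by name, with earlier results of these data known, and each matched exactly 1 of the 28850 genes measured. Of these 8 genes, 7 passed the filter on low counts that left 13756 genes to test, and msgn1 did not. RNA was sequenced from animal caps, the explanted ectoderm of Xenopus tropicalis embryos, at Nieuwkoop-Faber stage 10.5 (early gastrula). Wild-type embryos kept at 25 °C had been injected at the 1-cell stage with 22.5 ng of a Foxh1 morpholino (Foxh1 MO, 2 libraries) or with the same mass of a standard control morpholino (control MO, 2 libraries). A morpholino is a synthetic antisense oligonucleotide that blocks translation or splicing of its target. Foxh1 is a forkhead protein that carries Nodal signals to DNA together with Smad2, and the comparison asks what its loss does to ectodermal transcripts. The labels give neither the clutches nor the number of explants behind a library, so p-values measure the spread between these libraries, which may be technical.

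In the gastrula, Wnt, FGF and Nodal signals around the blastopore switch on tbxt, and the T-box protein it encodes maintains mesoderm and the notochord. The Cdx proteins are homeodomain factors of the caudal family that activate Hox genes of the trunk and tail. The Not protein specifies notochord, Evx1 belongs to the even-skipped family of posterior patterning factors, and Hoxd1 is a Hox protein of the labial group. Mesogenin, encoded by msgn1, acts in presomitic mesoderm. All are called posterior genes below as a name for the set, without a claim that each sets posterior identity. The animal cap normally forms epidermis and neural tissue, so these genes are read here in tissue outside their best-known domain.

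The libraries labelled Foxh1 MO held 28567827 and 25632619 expected counts, and the control MO libraries 29750009 and 29800530. The target's own transcript, foxh1, stood at 264 and 174 CPM (counts scaled to a common library total) in Foxh1 MO caps, against 79.3 and 71.2 CPM in control MO caps. Since RNA says little about the protein, this does not check the depletion. All 19 ectoderm markers in the files had counts in every library, and together they summed to 3724 and 3821 CPM in Foxh1 MO caps, against 3438 and 3518 CPM in control MO caps. Within that sum 7 rose, 3 fell and 9 did not pass (52.6% called, against 8.24% of all tested genes). Those that rose were tfap2a, grhl1, dlx3, foxi1, krt70, upk3b and gata2, and foxi2 and the neural genes sox2 and sox3 fell. The 15 markers of marginal zone mesoderm summed to 13.1 and 13.3 CPM in Foxh1 MO caps, against 18.1 and 21.4 CPM in control MO caps. Of the 7 tested, eomes and chrd.1 fell, 0 rose and 5 did not pass (28.6% called, against 8.24% of all tested genes). The log2 fold change was positive for 3 of the 7 and negative for 4. None of these 15 was at 0 in all libraries, but fgf3, fgf4, mespa and mespb stayed under 10 counts in each. The 13 endoderm markers summed to 19.7 and 20.4 CPM in Foxh1 MO caps, against 25.7 and 32.7 CPM in control MO caps, with bix1.1 at 0 throughout. The largest part of each sum was gata6, which was not called (edgeR adjusted p = 0.137). It had 10.8 and 11.6 CPM in Foxh1 MO caps, against 13.6 and 16.9 CPM in control MO caps. Of the 10 endoderm markers tested, 2 fell, 1 rose and 7 did not pass (30% called, against 8.24% of all tested genes). The log2 fold change was positive for 3 of these 10 and negative for 7. Mix1 (log2 fold change -2.55) and sox17b.1 (-1.05) fell. Darmin rose, with 1.83 and 2.19 CPM in Foxh1 MO caps, against 0.191 and 0.211 CPM in control MO caps. A marker can pass the filter through the group where it is high, as darmin did through Foxh1 MO and chrd.1 through control MO. The called shares of these markers therefore describe only the genes that passed. In bulk tissue, fewer cells of a type and less RNA per cell cannot be told apart, and the part of these marker levels in the changes below was not tested.

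The posterior genes did not move as a block. With Foxh1 MO, hoxd1, cdx4 and not rose, evx1 fell, and cdx1, cdx2 and tbxt did not pass the test. Calls were made with edgeR's quasi-likelihood test at an adjusted p under 0.05, by Benjamini-Hochberg over all 13756 genes. Of the 7 tested posterior genes 4 were called, where 8.24% of all tested genes were called, 4.17% higher and 4.07% lower. Because the genes were chosen with earlier results of these data known, these shares do not test the set. The median log2 fold change (Foxh1 MO minus control MO) was 0.26 over the 7 genes and -0.000186 over all tested genes. For 6 of the 7 genes the CPM values of the groups lay apart, with Foxh1 MO above for 3 and below for 3. The same held for 50.8% of all tested genes, with Foxh1 MO above for 26.5% and below for 24.3%.

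**Figure D1:**
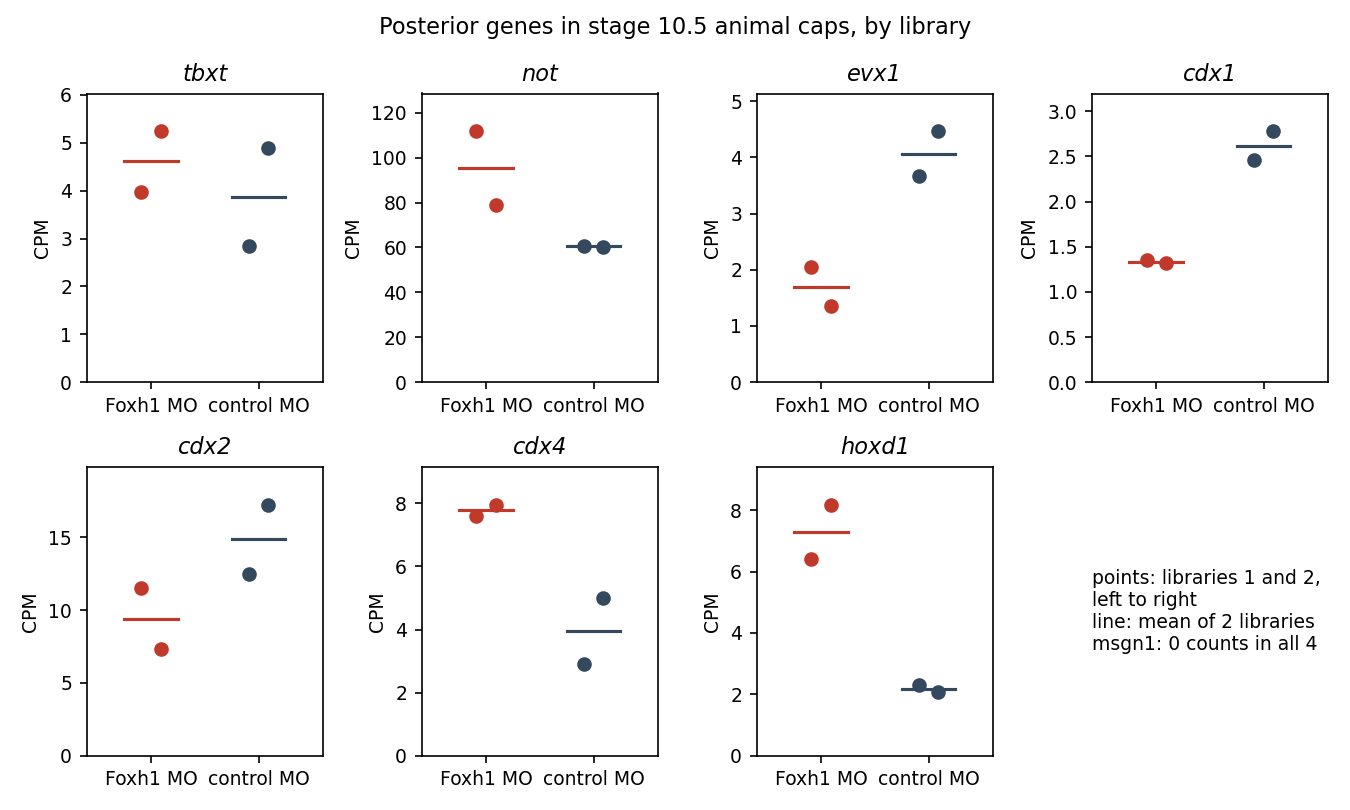
CPM (linear axis from 0) of the 7 tested posterior genes in each library, with Foxh1 MO left and control MO right in each panel; points are libraries and lines are means of 2 libraries. The Foxh1 MO points lie above the control MO points for not, cdx4 and hoxd1, below them for evx1, cdx1 and cdx2, and among them for tbxt.

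Levels of different genes were compared per length, in TPM (transcript abundance scaled by length). In control MO caps the order was not (105 ± 7.87 TPM, SD, n = 2), cdx2 (13.6 ± 2.21), cdx4 (4.09 ± 1.28), tbxt (4.03 ± 1.21), evx1 (3.68 ± 0.283), hoxd1 (3.58 ± 0.502), cdx1 (1.97 ± 0.0495) and msgn1 (0). The values of cdx4, tbxt, evx1 and hoxd1 lay within each other's spread. The level of not exceeded that of 87.9% of the tested genes, and that of cdx2 exceeded 46.9%, while the 5 lower detected genes exceeded 19.0% to 27.5%. In Foxh1 MO caps the mean levels were 161 ± 35.6 TPM for not, 11.6 ± 2.23 for hoxd1, 8.39 ± 2.45 for cdx2, 7.92 ± 0.453 for cdx4, 4.78 ± 1.06 for tbxt, 1.51 ± 0.389 for evx1, 0.975 ± 0.00707 for cdx1 and 0 for msgn1. The order of hoxd1 and cdx2 there held for the means but not in each library: hoxd1 had 10.02 and 13.2 TPM, and cdx2 had 10.1 and 6.66 TPM. The cdx2 and cdx4 levels did not differ beyond their spread either.

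Among the mesodermal regulators, tbxt was low and overlapped between the groups. It had 109 and 139 counts (3.98 and 5.24 CPM) in Foxh1 MO caps, against 89 and 139 counts (2.84 and 4.89 CPM) in control MO caps. Its lowest library was control MO 1, and the other 3 lay between 3.98 and 5.24 CPM. The log2 fold change was 0.26 (SE 0.27, 95% interval -0.33 to 0.85, edgeR adjusted p = 0.656), and that interval holds changes in either direction. Without control MO 1 the sign turned (-0.087). The neighbouring brachyury paralog tbxt.2, listed in the RefSeq table with the synonym xbra3, was lower still, at 15 and 18 counts in Foxh1 MO caps, against 14 and 12 counts in control MO caps (log2 fold change 0.49, SE 0.45, edgeR adjusted p = 0.595). Summed over both paralogs, the levels were 4.66 and 6.33 TPM in Foxh1 MO caps, against 3.73 and 5.35 TPM in control MO caps, which overlap. Expected counts of all 8 posterior genes were whole to within 0.001 in every library, so no split of reads between paralogs is visible at the gene level. The length given for tbxt, an average over its 2 transcripts weighted by their abundance, was 2327 and 2311 bases in Foxh1 MO caps, against 2310 and 2357 bases in control MO caps, with no separation of the groups.

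The presomitic gene msgn1 had 0 counts in all 4 libraries, which allows up to 3 counts per library, or 0.0956 to 0.113 CPM (counting error only). It was not tested.

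The notochord gene not was the most abundant of the 8 and rose moderately. It had 112 and 79.1 CPM in Foxh1 MO caps, against 60.7 and 60.3 CPM in control MO caps. Both control MO libraries were nearly equal, and Foxh1 MO 1 was the higher of the libraries labelled Foxh1 MO. The change was 1.58-fold (log2 fold change 0.66, SE 0.17, edgeR adjusted p = 0.0298). The call ended without Foxh1 MO 1 (0.39, edgeR adjusted p = 0.0687), without control MO 1 (0.66, adjusted p = 0.0606) and without control MO 2 (0.66, adjusted p = 0.0734).

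Evx1 was the posterior gene that fell. It had 2.04 and 1.36 CPM in Foxh1 MO caps, from 56 and 36 counts, against 3.67 and 4.47 CPM in control MO caps, from 115 and 127 counts. Each Foxh1 MO library lay below each control MO library. The level was 2.38-fold lower (log2 fold change -1.25, SE 0.28, edgeR adjusted p = 0.0160). The call ended without Foxh1 MO 2 (-0.99, edgeR adjusted p = 0.0903). The weighted length of its 2 transcripts was 2667 and 2649 bases in Foxh1 MO caps, against 2674 and 2676 bases in control MO caps. Next to evx1 in the RefSeq gene order stands hoxa13, at 3 and 6 counts in Foxh1 MO caps, against 20 and 13 counts in control MO caps (log2 fold change -1.69, SE 0.58, edgeR adjusted p = 0.0999, not called). On the other side, hibadh stood at -0.12 on the log2 scale (edgeR adjusted p = 0.704). The paralog evx2 was under the filter, with 2 and 0 counts in Foxh1 MO caps, against 6 and 14 counts in control MO caps.

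Of the 3 caudal genes 1 passed the test. The Wnt- and FGF-responsive gene cdx4 rose, with 7.59 and 7.96 CPM in Foxh1 MO caps, against 2.90 and 4.995 CPM in control MO caps (1.98-fold, or 0.98 ± 0.24 SE on the log2 scale, edgeR adjusted p = 0.0270). The Foxh1 MO libraries were close to each other, and the control MO libraries were further apart. That call ended without Foxh1 MO 2 (0.94, edgeR adjusted p = 0.0684) and without control MO 1 (0.64, adjusted p = 0.116).

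The second, cdx1, had 1.35 and 1.32 CPM in Foxh1 MO caps, against 2.45 and 2.78 CPM in control MO caps. Neither group spread as much as the gap between them, and the log2 fold change was -0.97 (SE 0.28, 95% interval -1.58 to -0.35), yet the edgeR adjusted p was 0.0562. Most abundant of the caudal genes in control MO caps, cdx2 had 11.5 and 7.32 CPM in Foxh1 MO caps, against 12.5 and 17.2 CPM in control MO caps. Foxh1 MO 1 and control MO 1 lay close together, and the log2 fold change was -0.66 (SE 0.22, 95% interval -1.14 to -0.17, edgeR adjusted p = 0.0962). Both genes sit near the threshold. In the authors' deposited table the false discovery rates were 0.0407 for cdx1 and 0.0321 for cdx2, with log2 fold changes of -0.96 and -0.67. That table lay closer to a fit with the replicate number as a block than to the fit used here. With the block, the edgeR adjusted p was 0.0449 for cdx1 and 0.0256 for cdx2. The size of the cdx2 change depended on which library was dropped. Dropping Foxh1 MO 1 gave a log2 fold change of -1.02, and dropping control MO 1 gave -0.87. The change was smaller when Foxh1 MO 2 (-0.37) or control MO 2 (-0.41) was dropped instead.

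**Figure D2:**
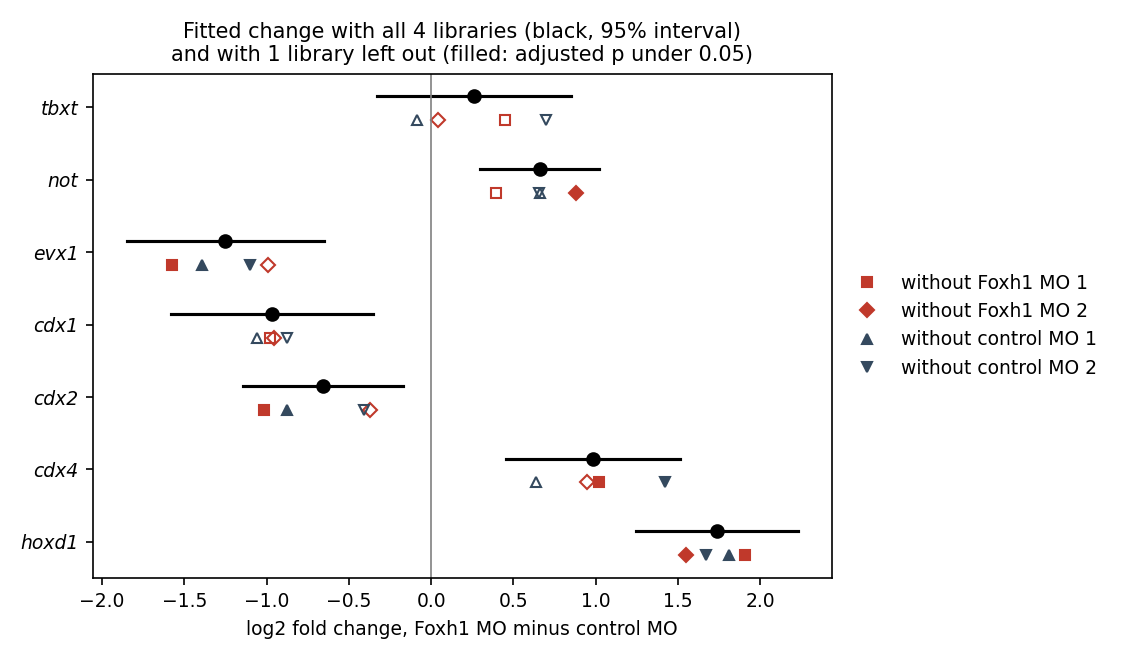
Log2 fold change (Foxh1 MO minus control MO, horizontal axis) of the 7 tested posterior genes: black points and bars give the fit of all 4 libraries with its 95% interval, and smaller markers give the fit with 1 library left out, filled where the edgeR adjusted p was under 0.05. All markers of hoxd1 are filled, between 1.55 and 1.91; those of cdx1 are open, between -1.06 and -0.87.

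The make-up of the caudal transcripts is described by shares of their sum, which are tied to each other, so a higher share of cdx4 lowers the other shares. Summed over cdx1, cdx2 and cdx4, the level was 18.7 and 15.9 TPM in Foxh1 MO caps, against 17.2 and 22.2 TPM in control MO caps (exact two-sided permutation p = 0.667). The share of cdx4 in that sum was 40.7% and 51.9% in Foxh1 MO caps, against 18.5% and 22.5% in control MO caps. The share of cdx2 was 54.1% and 41.9% in Foxh1 MO caps, against 70.2% and 68.5% in control MO caps, and that of cdx1 was 5.19% and 6.17% in Foxh1 MO caps, against 11.3% and 9.03% in control MO caps. None of the 3 shares overlapped between the groups. The exact two-sided permutation p was 0.333 for each, the smallest that this test can give with 2 against 2 libraries. That test therefore cannot show a difference in these shares.

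**Figure D3:**
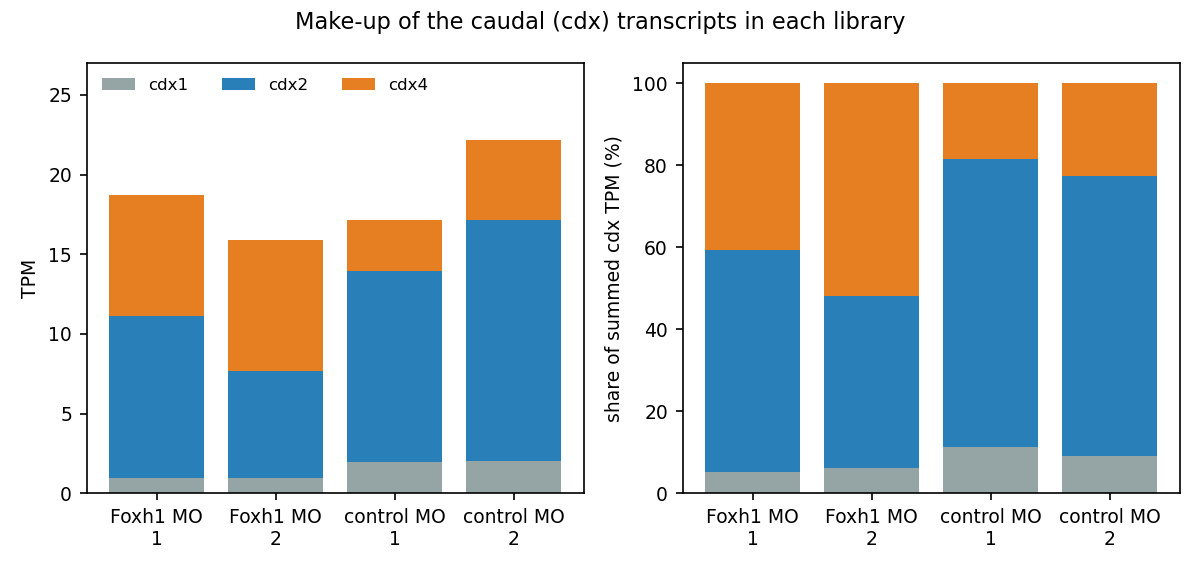
TPM of cdx1, cdx2 and cdx4 stacked for each library (left, axis from 0), and the same as percent of their sum (right), with Foxh1 MO libraries left of control MO libraries. The cdx4 segment is 40.7% and 51.9% of the sum in Foxh1 MO caps, against 18.5% and 22.5% in control MO caps.

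Of the 8 genes, hoxd1 changed the most. In Xenopus it is known as a gene that Wnt signals and retinoic acid switch on early. It had 6.42 and 8.18 CPM in Foxh1 MO caps, from 176 and 217 counts, against 2.29 and 2.08 CPM in control MO caps, from 72 and 59 counts. The groups lay far apart compared with the spread in either. The rise was 3.33-fold (log2 fold change 1.74, SE 0.23, edgeR adjusted p = 0.000726), which placed it 63rd by size and 39th by p among the 574 genes that rose. Its call held without each library in turn (log2 fold change 1.55 to 1.91, largest edgeR adjusted p = 0.00268). The authors' deposited table gave it a log2 fold change of 1.73 and a false discovery rate of 1.25e-08. With the replicate number as a block, the edgeR adjusted p of hoxd1 was 1.65e-08.

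The neighbours of hoxd1 in the RefSeq gene order were few in reads or did not pass. On the side away from the cluster, mtx2 and hnrnpa3 had log2 fold changes of 0.16 (edgeR adjusted p = 0.636) and -0.027 (0.944). Inside the cluster, hoxd4 had 7 and 7 counts in Foxh1 MO caps, against 3 and 1 counts in control MO caps, hoxd3 had 7 and 10 counts in Foxh1 MO caps, against 10 and 8 counts in control MO caps, and hoxd8 had 2 and 1 counts in Foxh1 MO caps, against 13 and 10 counts in control MO caps. These 3 genes were under the filter. At the far end of the cluster hoxd13 fell, with 3 and 3 counts in Foxh1 MO caps, against 19 and 19 counts in control MO caps (log2 fold change -2.47, SE 0.58, edgeR adjusted p = 0.0209), a call that was lost on leaving out any 1 library (adjusted p up to 0.122). Hoxd10 rose, with 11 and 12 counts in Foxh1 MO caps, against 0 and 2 counts in control MO caps (edgeR adjusted p = 0.0280). Without control MO 1 the p was 0.189, and without either Foxh1 MO library hoxd10 was under the filter. By DESeq2 neither was called (adjusted p = 0.128 for hoxd13 and 0.14 for hoxd10). Hoxd9, under the filter, had 5 and 4 counts in Foxh1 MO caps, against 10 and 5 counts in control MO caps.

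Hox genes as a whole, the known targets of Cdx proteins, were near the limit of detection. Of the 35 Hox genes other than hoxd1, 11 passed the filter, and of these 1 rose (hoxd10), 1 fell (hoxd13) and 9 did not pass. The lower count depended on the settings: it was 3 with no filter, 5 with limma-trend on log2(TPM + 1), 6 on log2(TPM + 0.1), and 0 with DESeq2 or a filter of 1 CPM in 2 libraries. The called share was 18.2%, against 8.24% of all tested genes, and the median log2 fold change was -1.07, with 4 positive and 7 negative. A gene can pass the filter through the group where it is high, as hoxd10 did through Foxh1 MO and hoxd13 through control MO. The called share and this median therefore describe only the genes that passed. Among those without a call, hoxb3 had 1.93 and 0.981 CPM in Foxh1 MO caps, against 3.31 and 2.18 CPM in control MO caps (log2 fold change -0.91, SE 0.35). Hoxb3 passed without Foxh1 MO 1 (-1.48, edgeR adjusted p = 0.00706) and without control MO 2 (-1.18, adjusted p = 0.0217).

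Grouped by paralog number, the summed level of the 8 Hox genes of groups 10 to 13 was 1.53 and 1.77 CPM in Foxh1 MO caps, against 3.12 and 3.45 CPM in control MO caps. The 15 genes of groups 5 to 9 summed to 1.97 and 2.26 CPM in Foxh1 MO caps, against 3.25 and 2.39 CPM in control MO caps. The 12 genes of groups 1 to 4, hoxd1 left out, summed to 6.86 and 5.997 CPM in Foxh1 MO caps, against 6.57 and 7.0004 CPM in control MO caps. The groups of libraries were apart for paralog groups 5 to 9 and 10 to 13 (exact two-sided permutation p = 0.333 for each, the smallest possible) and overlapped for 1 to 4 (0.667). That test therefore cannot show a difference, and 50.8% of all tested genes taken singly also lay apart. Among tested genes of paralog groups 5 to 9, the log2 fold change was positive for 1 and negative for 1. It was positive for 1 and negative for 4 in groups 10 to 13, and positive for 2 and negative for 2 in groups 1 to 4. This grouping was made after the values were seen.

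Around the other posterior genes, prr18, near tbxt in the RefSeq gene order, fell (27.3 and 23.8 CPM in Foxh1 MO caps, against 42.0 and 36.0 CPM in control MO caps, edgeR adjusted p = 0.0256). Among the genes up to 3 places from cdx4, amer1 stood closest to the threshold (log2 fold change 0.49, edgeR adjusted p = 0.0504). In the opposite direction, LOC100494793, also within 3 places, stood at -0.49 (edgeR adjusted p = 0.0559). Neither was called.

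Genes with the most similar profiles over the 4 libraries were found by the Euclidean distance between log2 CPM values centred on each gene's mean, among genes of at least 5 CPM; with 4 libraries this describes likeness only. Closest to hoxd1 were znf644 (distance 0.212), cep85 (0.275) and mal2 (0.283). Closest to cdx4 were gmnc (0.305), tmcc1 (0.337) and the epidermal homeobox gene dlx3 (0.340). Closest to not were palb2 (0.0595), agap1 (0.0865) and grm7 (0.1003), and closest to evx1 were irs2 (0.0980), the secreted Wnt antagonist gene sfrp2 (0.0999) and mab21l2 (0.110).

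The signals that act upstream of the posterior genes were read from lists of their components and targets. In these and the later lists a gene can pass the filter through the group where it is high, so counts and medians describe only the genes that passed, and the called shares stand against 8.24% of all tested genes. Wnt signalling activates tbxt, cdx and hoxd1 genes through beta-catenin. The list held 28 tested genes, of which 4 rose and 1 fell (17.9% called; median log2 fold change 0.074), and 23 did not pass. The genes that rose were znrf3, encoding a feedback inhibitor that removes Wnt receptors (39.3 and 36.0 CPM in Foxh1 MO caps, against 20.6 and 24.6 CPM in control MO caps), the co-receptor gene lrp5 (35.3 and 31.5 CPM in Foxh1 MO caps, against 20.2 and 22.2 CPM in control MO caps), the receptor gene fzd10 (45.8 and 35.9 CPM in Foxh1 MO caps, against 24.1 and 28.5 CPM in control MO caps) and the feedback gene axin2 (58.4 and 48.7 CPM in Foxh1 MO caps, against 38.6 and 34.8 CPM in control MO caps). Sfrp2 fell (38.5 and 27.8 CPM in Foxh1 MO caps, against 74.1 and 89.9 CPM in control MO caps, edgeR adjusted p = 0.000851). Neither ctnnb1, which encodes beta-catenin, nor fzd7 was called (log2 fold changes 0.11 and 0.048). Also without a call, and named after their values were seen, were lef1 (0.42), rnf43 (0.18), sp5l (0.11), notum (-0.030) and nkd1 (-0.15). The log2 fold change was positive for 16 of the 28 genes and negative for 12. Without control MO 1 none of the 4 calls of a rise held (0 higher, 2 lower, edgeR adjusted p 0.0641 for znrf3, 0.0804 for lrp5, 0.0688 for axin2 and 0.15 for fzd10); without Foxh1 MO 1 those of fzd10 and axin2 ended and 3 genes were lower, and without control MO 2 that of axin2 ended (0.252).

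FGF signalling maintains tbxt and activates cdx4. Its list held 24 tested genes, of which 2 rose, 0 fell (8.33% called, near the 8.24% of all tested genes; median log2 fold change -0.075) and 22 did not pass. By edgeR 2 were lower at an unadjusted p under 0.05, and by DESeq2 1 was lower and by limma-voom 0. The feedback inhibitor gene spry2 had 52.2 and 48.1 CPM in Foxh1 MO caps, against 30.0 and 32.7 CPM in control MO caps, and fos had 15.1 and 12.03 CPM in Foxh1 MO caps, against 8.54 and 8.94 CPM in control MO caps. Neither the Ets factor gene etv1 (-0.034) nor the receptor gene fgfr4 (0.36) was called with all libraries. Nor were fgfr2 (-0.72, edgeR adjusted p = 0.0506) and dusp6 (-0.38, adjusted p = 0.152), both named after their values were seen. The log2 fold change was positive for 10 of the 24 genes and negative for 14. With 1 library left out, the log2 fold change of fgfr4 ran from 0.27 to 0.44. Without control MO 1 there were 2 FGF genes lower and 0 higher, and 6 were lower without Foxh1 MO 1; the fos call also ended without Foxh1 MO 1 (edgeR adjusted p = 0.136) and without control MO 2 (0.0638), by DESeq2 (0.069) and by limma-voom (0.0517).

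Retinoic acid is a posteriorizing signal to which labial-group Hox genes respond. Of 19 tested genes of its synthesis, breakdown and reception, 2 rose, 1 fell and 16 did not pass (15.8% called; median log2 fold change 0.074). Cyp26a1, a gene for a degrading enzyme, had 41.0 and 41.1 CPM in Foxh1 MO caps, against 77.9 and 94.6 CPM in control MO caps (log2 fold change -1.07, SE 0.15, edgeR adjusted p = 0.000941). The binding protein gene crabp2 had 12.9 and 10.5 CPM in Foxh1 MO caps, against 2.80 and 5.63 CPM in control MO caps (1.48, SE 0.27, adjusted p = 0.00504). The receptor gene rxrg rose to 20.4 and 20.7 CPM in Foxh1 MO caps, against 12.6 and 14.8 CPM in control MO caps (0.59), a call that ended without Foxh1 MO 2 (0.0979) and without control MO 1 (0.214). No call was made for the corepressor gene ncor1 (-0.31) or the receptor gene rarg (0.12). Without Foxh1 MO 1 ncor1 passed (-0.62, edgeR adjusted p = 0.000243) and 3 genes of the list were lower, and without control MO 1 there were 2 lower.

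The tissues in which tbxt and not are known to act were read from lists of their other genes. Of 15 tested mesoderm and presomitic genes, 1 rose, 5 fell and 9 did not pass (40% called; median log2 fold change -0.24), while 12 others in the files were too low to test. The adhesion gene pcdh8 had 1.39 and 1.21 CPM in Foxh1 MO caps, against 5.35 and 8.48 CPM in control MO caps, and the T-box gene tbx1 had 3.61 and 1.66 CPM in Foxh1 MO caps, against 8.38 and 7.63 CPM in control MO caps. Another T-box gene, eomes, which acts in early mesendoderm, had 3.14 and 2.72 CPM in Foxh1 MO caps, against 5.26 and 6.16 CPM in control MO caps, and foxc2 had 2.52 and 1.36 CPM in Foxh1 MO caps, against 4.27 and 5.52 CPM in control MO caps. The fifth that fell was foxd3, named after its values were seen. The Notch ligand gene dlc rose (24.8 and 25.4 CPM in Foxh1 MO caps, against 14.1 and 13.8 CPM in control MO caps). The Notch effector genes rbpj (0.045) and hes4 (0.068) were not called. Tbx6, named after its values were seen, was not called either (log2 fold change 0.89, edgeR adjusted p = 0.180). Its levels were 1.46 and 1.21 CPM in Foxh1 MO caps, against 0.829 and 0.598 CPM in control MO caps. The log2 fold change was positive for 7 of the 15 genes and negative for 8. Without Foxh1 MO 2, 2 genes of the list were called lower, and the calls of foxc2 (edgeR adjusted p = 0.0812) and eomes (0.0868) ended; the eomes call also ended without control MO 2 (0.0595).

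Of 9 tested notochord and organizer genes besides not, 4 fell, 0 rose and 5 did not pass (44.4% called; median log2 fold change -1.14), and 11 more were too low to test. At an unadjusted p under 0.05 edgeR had 2 higher, and DESeq2 and limma-voom called 0 higher. Those 2 were bambi and lefty, the latter named after its values were seen (log2 fold change 0.61, edgeR adjusted p = 0.126, not called). Lefty had 6.02 and 5.39 CPM in Foxh1 MO caps, against 3.19 and 4.33 CPM in control MO caps. The log2 fold change was positive for 2 of the 9 genes and negative for 7. The BMP antagonist gene chrd.1 had 0.292 and 0.151 CPM in Foxh1 MO caps, against 3.12 and 2.71 CPM in control MO caps, and admp had 0.110 and 0.0754 CPM in Foxh1 MO caps, against 1.27 and 1.65 CPM in control MO caps. These 2 genes passed the filter through the control MO libraries, with 8 and 4 counts of chrd.1 in Foxh1 MO caps, against 98 and 77 counts in control MO caps, and 3 and 2 counts of admp in Foxh1 MO caps, against 40 and 47 counts in control MO caps. The LIM homeobox gene lhx1 had 1.39 and 1.24 CPM in Foxh1 MO caps, against 4.02 and 4.75 CPM in control MO caps, and the follistatin gene fst had 0.986 and 0.679 CPM in Foxh1 MO caps, against 2.52 and 3.66 CPM in control MO caps. No call was made for bambi (0.40) or pkdcc.1 (-0.46) with all libraries; both passed without Foxh1 MO 1 (0.56 and -0.63, edgeR adjusted p = 0.00169 and 0.0141).

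Genes listed as posterior or anterior neural were read next. Whether their transcripts came from neural cells in these early gastrula caps was not tested. Beside these lists, the general neural marker sox2 had 86.1 and 72.1 CPM in Foxh1 MO caps, against 182 and 189 CPM in control MO caps. Of the other ectoderm markers 7 rose, as given above. The part of these markers in the changes below was not tested. Of 17 tested posterior neural genes, 5 fell, 0 rose and 12 did not pass (29.4% called; median log2 fold change -0.75). By edgeR 1 was higher at an unadjusted p under 0.05, and DESeq2 and limma-voom called 0 higher and 4 lower. With no filter 1 was called higher, and with the replicate number as a block 7 were called lower. The repressor gene hes7.1 had 5.77 and 6.86 CPM in Foxh1 MO caps, against 14.3 and 17.03 CPM in control MO caps, irx3 had 1.61 and 1.43 CPM in Foxh1 MO caps, against 3.54 and 4.54 CPM in control MO caps, and sall4 had 541 and 416 CPM in Foxh1 MO caps, against 832 and 782 CPM in control MO caps. The hindbrain gene mafb had 0.730 and 0.415 CPM in Foxh1 MO caps, against 1.59 and 2.36 CPM in control MO caps, and the fifth was pax3, named after its values were seen. Without a call were sall1 (-0.35) and pbx2 (0.046). Without Foxh1 MO 2, and likewise without control MO 2, 3 genes of the list were called lower, and mafb was lost in both cases (edgeR adjusted p = 0.0971 and 0.0508); sall1 passed without Foxh1 MO 1 (-0.49, adjusted p = 0.00623).

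Of 11 tested anterior neural genes, 3 fell, 0 rose and 8 did not pass (27.3% called; median log2 fold change -0.67). At an unadjusted p under 0.05 edgeR had 1 higher, and DESeq2 and limma-voom called 0 higher. Upper-quartile factors, no filter, both limma-trend fits, the replicate number as a block and an adjusted p under 0.1 each called 1 higher. The lower count was 5 with both limma-trend fits and at an adjusted p under 0.1. The log2 fold change was positive for 1 of the 11 genes and negative for 10. The positive gene, barhl2, named after its values were seen, stood at 1.54 (edgeR adjusted p = 0.0564). The head genes otx1 (24.5 and 20.7 CPM in Foxh1 MO caps, against 53.1 and 63.6 CPM in control MO caps), otx2 (8.03 and 6.60 CPM in Foxh1 MO caps, against 13.004 and 14.7 CPM in control MO caps) and dmrta2 (0.292 and 0.302 CPM in Foxh1 MO caps, against 1.12 and 1.62 CPM in control MO caps) fell. Without a call were sp8 (-0.48) and pax6 (-0.11).

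**Figure D4:**
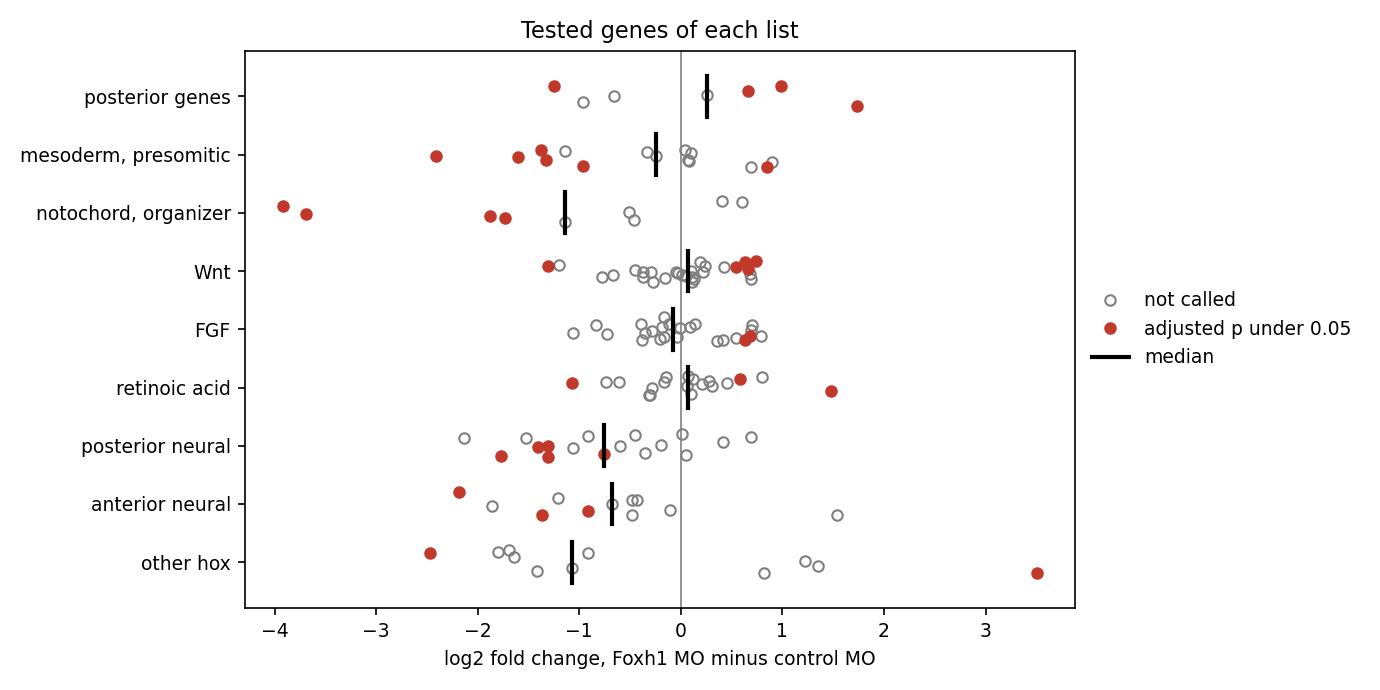
Log2 fold change (Foxh1 MO minus control MO) of every tested gene in the posterior set and in 8 lists of related genes; filled red points have an edgeR adjusted p under 0.05, open points do not, black bars are medians, and the vertical scatter within a list has no meaning. The posterior genes spread from -1.25 (evx1) to 1.74 (hoxd1), and the medians run from -1.14 (notochord and organizer) to 0.26 (posterior genes).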

How the data were processed

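Messenger RNA of 4 animal cap libraries was analysed from tables the authors deposited. Per the file headers, each gave an expected count, a TPM, an FPKM and a length for each of 28850 genes, 1 library per table; the authors' deposited comparison table held log2 fold changes and log2 CPM, the F score, and p-values with their false discovery rates. The submitters' processing notes name STAR 2.7.3a with RSEM 1.3.3, and R 4.1.2 with edgeR 3.36.0; build and strandedness of counting are not given in the sources used here. Reads of overlapping genes therefore cannot be assigned by strand. Poly(A) RNA was selected, yet 28.3% to 34.0% of counts fell in 463 ribosomal RNA gene models.

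Expected counts were rounded and tested with edgeR 4.0.16 in R 4.3.3 (filterByExpr with minimum count 10 and minimum total count 15, TMM, quasi-likelihood F test with no covariate, Benjamini-Hochberg adjustment over 13756 genes). CPM values were scaled by TMM, and SE is the absolute log2 fold change divided by the square root of F. The code was tested on simulated data. Alternatives used limma 3.58.1, DESeq2 1.42.0, other filters, scalings and thresholds, a replicate block, and 1 library left out at a time. Deposited FPKM values were not tested. The RefSeq table of assembly UCB_Xtro_10.0 gave names, gene types and neighbour order; 25856 genes matched by accession, all 8 posterior genes among them. No other sample's columns were present (0).

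Some genes stand in more than 1 list. The members and gene lists were chosen with earlier results of these data known. Named genes were the 8 members, other genes of their families, foxh1, up to 4 called genes per direction with the smallest adjusted p and the 2 most abundant genes not called from each list, and the 3 nearest profiles of each called member. Promoter and protein sequences were not used here. A gene that this rule named is not reported here.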

Additional observations from a re-analysis of the deposited data

How the results depend on the processing

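Counts of called posterior genes depended on the settings because several lie near the threshold. The count called higher was 3 under each other test, filter and scaling tried, 1 at an adjusted p under 0.01, and 1 to 2 with 1 library left out. The count called lower, 1 with all libraries, was 3 with upper-quartile factors, with no filter, with log2(TPM + 0.1), with the replicate block and at an adjusted p under 0.1, 2 with a filter of 1 CPM in 2 libraries and with log2(TPM + 1), 0 at an adjusted p under 0.01, and 0 to 2 with 1 library left out. The gain was cdx1, with log2 fold changes of -0.98 (upper-quartile), -0.97 (no filter), -0.98 (1 CPM), -0.59 (TPM + 1) and -0.94 (TPM + 0.1), and cdx2, with -0.67 (upper-quartile), -0.66 (no filter) and -0.71 (TPM + 0.1); the cause was not tested. With the replicate number as a block, cdx1 stood at -0.97 (edgeR adjusted p = 0.0449) and cdx2 at -0.67 (0.0256), and 546 genes were higher and 699 lower; the axin2 call ended (0.54, adjusted p = 0.052), leaving 3 Wnt genes higher, and 3 Hox genes were lower. Same-numbered libraries did not deviate together (r = -0.082 across genes, which are not independent replicates), so the numbers are not shown to pair samples. The authors' deposited log2 fold changes differed by a median of 0.000345 from the fit with the block and by 0.00410 from the fit without it. Of the 1244 genes called by the authors, 1213 were called with the block and 1048 without it. DESeq2, limma-voom and leaving out ribosomal RNA models changed no posterior call.

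With 1 library left out, log2 fold changes ran from -0.087 to 0.70 for tbxt, 0.39 to 0.88 for not, -1.06 to -0.87 for cdx1, -1.02 to -0.37 for cdx2, 0.64 to 1.42 for cdx4, -1.57 to -0.99 for evx1 and 1.55 to 1.91 for hoxd1; the lone library of a group was assumed to vary like the other group. Over all genes the calls were then 388 to 853 higher and 337 (without Foxh1 MO 2) to 1493 (without Foxh1 MO 1) lower, against 574 and 560 with all 4; lower calls were 862 with no filter and 872 with log2(TPM + 0.1). At an adjusted p under 0.1 there were 874 higher, and under 0.01 there were 210 higher and 220 lower. Signs also turned for 6 named genes near 0, none called with all libraries: rbpj (-0.066 to 0.17), hes4 (-0.046 to 0.19), fzd7 (-0.10 to 0.18), etv1 (-0.23 to 0.14), pbx2 (-0.023 to 0.11) and pax6 (-0.29 to 0.049). With limma-trend on log2(TPM + 1) and on log2(TPM + 0.1), in that order, the calls of axin2 (adjusted p = 0.11 and 0.093), lrp5 (0.079 and 0.0605) and rxrg (0.113 and 0.0924) ended.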
